A study of Mus musculus with 133 samples.

Results

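Sham surgery at 52 h was compared with normal liver (NL) in wild-type C57BL/6 mouse hepatocytes, over every gene of the table. Members were chosen by the sample titles and numbered 38 of the 133 samples of the series, 18 from sham-operated mice and 20 from mice without surgery. They fell into 6 sex and age groups: young females (YF) and males (YM) of 11–14 weeks, old females (OF) and males (OM) of 60 weeks, and very old females (VOF) and males (VOM) of 100 weeks. YF and YM had 4 NL samples and 3 sham samples each, and the other 4 groups had 3 of each. The sham operation was a midline opening of the abdomen under inhaled anaesthesia, closed again with sutures and with no removal of liver. Hepatocytes were isolated by two-step collagenase digestion, and their polyadenylated RNA was measured by CEL-seq2, in which a unique molecular identifier (UMI) tags each transcript near its 3' end. The study used the sham and female libraries for batch correction of the whole series. The study's methods describe 3 mice for each male NL group, which covers replicates 1–3 of YM, OM and VOM NL. For the sham, female and further NL libraries the sources used here do not say whether replicates were separate mice, so a p-value measures the spread between these samples, which may be technical. The time of day at which NL livers were taken is not given.

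Tissue injury raises interleukin-6 and related cytokines, which act on hepatocytes through STAT3 and NF-kB. The hepatocyte then makes acute phase proteins, secreted proteins that bind iron, haem and bacterial products or inhibit proteases, and makes less of some metabolic enzymes. Laparotomy without resection is a known stimulus of this response, and for this reason sham-operated animals stand beside hepatectomised ones in studies of liver regeneration.

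Promoter sequence is shown for a few of the genes that were higher after sham surgery, because STAT3, NF-kB and the heat shock factors each have a known binding motif. RefSeq start sites and sequence (GRCm38.p6) were available for 7896 of the 11046 genes tested, and the 250 bases before each start were read. The STAT motif TTCNNNGAA, which reads the same on both strands, was found before 6.89% of all 7896 genes and before 9.47% of 95 genes that were higher in all 6 groups. In the list of acute phase proteins it was found before 6 of 24 genes. The heat shock element GAANNTTC, also the same on both strands, was found before 6.27% of all genes and before 6 of 19 genes for chaperones and other heat shock proteins. The kappa B motif was found on either strand before 5.36% of all genes and before 5.26% of the 95. By list, it was found before 2 of 24 acute phase genes and before 4 of 14 genes of fatty acid synthesis, a list described below as lowered. Each window below is 30 bases of the strand of the gene, 5′ to 3′, with the motif in capitals. A match describes the letters only.

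Apcs, STAT, chr1:172895275-172895304, minus strand: atcttcTTCTAGGAAagcacagggtcatga
Steap4, STAT, chr5:7960346-7960375, plus strand: ggttgaactcTTCCCGGAAactttgcttca
Socs3, STAT, chr11:117969501-117969530, minus strand: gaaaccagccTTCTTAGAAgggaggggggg
Icam1, STAT, chr9:21015888-21015917, plus strand: ggcgcgaggtTTCCCGGAAagtggccccga
Cxcl1, kappa B, chr5:90891164-90891193, plus strand: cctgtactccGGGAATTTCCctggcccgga
Hspa1b, heat shock element, chr17:34959324-34959353, minus strand: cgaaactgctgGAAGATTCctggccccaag
Hspb1, heat shock element, chr5:135887791-135887820, plus strand: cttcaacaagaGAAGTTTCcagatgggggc

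Levels are given as CPM, counts scaled to a common library total after TMM (trimmed mean of M values) normalisation. Library totals ranged from 410951 to 4415925 counts in NL (median 2345098) and from 663665 to 5311112 in sham (median 1986613). Xist was at 119–1096 CPM in females and at most 2.27 in males, and Ddx3y at 60.9–318 in males and at most 5.47 in females, so the 38 libraries matched their labelled sex. The 12 hepatocyte markers summed to 18144–45536 CPM in NL and 14431–32065 in sham, and none of them was called (edgeR, 7 at an unadjusted p under 0.05, 0 by DESeq2). The values had been batch-corrected by the authors. The titles also carry a number called mix, which is not explained in the sources used here. Within each group, no NL library shared a mix with a sham library, so the operation and the mix cannot be told apart within a group. Among females, Xist also differed between mixes of 1 group and arm. YF NL had 367–531 CPM in mix 2 and 119 in mix 18, and YF sham 680–723 in mix 3 and 128 in mix 17. VOF sham had 483–679 CPM in mix 5 and 198 in mix 13. In OF, Xist was at 797–1096 CPM in NL and 186–205 in sham (log2 fold change −2.25, adjusted p = 0.000731, edgeR). The cause was not tested. For 39 genes some value exceeded 34070 counts, the most that UMIs of this length can return. These genes held 47.9–68.6% of the counts in VOF NL, 43.0–46.4% in OM NL, 53.4–57.7% in VOM sham, 5.42–8.44% in YF NL and at most 0.0507% in the other groups.

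A few libraries stood apart. The counts of YM NL 4 and YM NL 5 differed by less than sampling noise gives (a chi-square of 0.381 for each degree of freedom), and the pair was counted as 1 sample. For genes with a mean of at least 100 CPM, YF NL replicate 4 lay a median of 0.022 log2 from the mean of YF NL replicates 1–3 and between them for 99.3% of genes. YM NL replicate 4 lay 0.053 log2 from the mean of its own group's other replicates and between them for 95.8%. In the other 36 libraries this distance was 0.106–0.296 and the share 20.03–54.5%. Counts without these 2 libraries are given below. In YF NL replicate 1 and OM NL replicate 1, some acute phase genes stood at several times the level of the same group's other NL libraries, as given below.

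Over the 6 groups together, 285 genes were higher after sham surgery (2.58% of those tested) and 211 lower (1.91%), at an adjusted p under 0.1 and a fold change of at least 2. Without the 2 NL libraries numbered 4 the counts were 280 and 226. The sign of the difference was the same in all 6 groups for 486 genes upward and 489 downward, 8.83% of those tested. Both criteria were met by 130 genes upward (1.18%) and 67 downward (0.607%), and 194 of these 197 were also called without the 2 libraries. The median log2 fold change was −0.01 over all genes tested, 1.35 over the 130 and −1.19 over the 67. A total of 86 of the 197 averaged at least 20 CPM.

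Called separately in each of the 6 groups were 14 genes upward (0.127%) and 1 gene downward (0.00905%). The 14 were Lcn2, Cxcl1, Isyna1, Slc37a1, Mt2, Gas6, Atp11a, Apcs, Tifa, Fgl1, Slc3a1, Serpina3n, Saa4 and Il1r1, and the gene that fell was Scd1. Without the NL libraries numbered 4 the counts were 13 and 1. Leaving out 1 library at a time gave 5 to 17 genes upward and 0 to 2 downward. Every sham library lay above every NL library of its group for 33 genes (0.299%), and below for 7 (0.0634%). Of these, 25 and 3 were also among the genes called with 1 sign in all 6 groups. Some of the 33 are acute phase genes of high level, namely Saa1, Orm1, Orm2, Lrg1, Hp and Serpina10, and the 7 were Atp5l, Apoo, Pnpla2, Nr6a1, Acly, Scd1 and Hamp2. Isyna1, Mt2, Gas6, Atp11a and Fgl1, 5 of the 14, lie on chromosome 8, which holds 5.21% of the genes tested and 12 of the 130. This position was noticed after the values were seen.

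Acute phase proteins were the list with the most genes called, 19 of 33 measured upward and 1 downward, with a median log2 fold change of 1.18 and 29 of 33 above 0. Over all genes tested 2.58% were called upward and 1.91% downward, shares that apply to the counts of each list below. Lcn2, which encodes lipocalin 2, a secreted protein that binds bacterial siderophores, lies on chromosome 2 (32384633–32388252). Its NL levels were 104, 1.52, 39.1 and 44.0 CPM in YF, 110, 132 and 91.4 in OF, and 10.003, 103 and 188 in VOF. NL males had 30.9, 17.01, 19.5 and 23.2 CPM (YM), 308, 60.4 and 66.7 CPM (OM) and 129, 203 and 87.6 CPM (VOM). After sham surgery Lcn2 stood at 1531, 840 and 1268 CPM in YF, 1266, 1279 and 3284 in OF, and 1677, 1821 and 1818 in VOF. Sham males had 1804, 398 and 529 CPM (YM), 633, 980 and 433 CPM (OM) and 838, 1504 and 838 CPM (VOM). The arms did not overlap over all 38 libraries, since the highest NL value, 308 CPM in OM, lay below the lowest sham value, 398 CPM in YM. The log2 fold change was 3.97 (SE 0.366, adjusted p = 3.03e-10, edgeR), from 5.31 in YM down to 2.24 in OM. In OM the mean was 145 ± 141 CPM (SD, n = 3) in NL and 682 ± 277 (SD, n = 3) after sham surgery, and in YM 22.6 ± 6.04 (SD, n = 4) and 910 ± 777 (SD, n = 3).

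Serum amyloid A proteins are carried on high density lipoprotein during inflammation. Saa1 (chromosome 7, 46740497–46742980) had a lowest, median and highest level of 4.56, 195 and 1421 CPM in NL and of 1115, 3008 and 7334 CPM in sham. The 2 highest NL values, 1421 CPM in YF NL replicate 1 and 1330 in OM NL replicate 1, reached into the sham range, but within each group the arms did not overlap. Its log2 fold change was 3.84 (SE 0.476, adjusted p = 1.76e-07) and ran from 2.39 in OM to 5.90 in VOF. The paralog Saa2 beside it on chromosome 7 had the largest log2 fold change of the list, 4.402 (SE 0.594, adjusted p = 8.20e-07), with 0.588, 66.9 and 1306 CPM in NL and 494, 1857 and 5371 in sham. Reads of Saa1 and Saa2 could be split between them by the counting, so their separate levels are uncertain. Saa4, the constitutive member of the family, rose by a log2 fold change of 1.61 (SE 0.175, adjusted p = 1.25e-08), from 51.2–198 CPM in NL to 192–1166 in sham.

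Apcs encodes the serum amyloid P component, a pentraxin. Its level was 10.9, 40.1 and 163 CPM (lowest, median and highest) in NL and 64.8, 175 and 413 in sham, and its log2 fold change of 2.09 (SE 0.167, adjusted p = 1.05e-11) varied little between groups, from 1.97 to 2.18. Crp, the other short pentraxin, moved less, with a log2 fold change of 0.44 (SE 0.131, adjusted p = 0.0118), under the 2-fold minimum. Fgl1, a secreted fibrinogen-like protein of hepatocytes, was at 84.6, 282 and 547 CPM in NL and 722, 1007 and 1885 in sham, again with no overlap over all 38 libraries. Its log2 fold change was 1.89 (SE 0.170, adjusted p = 2.10e-10), from 1.68 in OM to 2.10 in YF. Serpina3n, a protease inhibitor, rose from 74.2–431 to 369–1191 CPM, with a log2 fold change of 1.69 (SE 0.163, adjusted p = 8.39e-10).

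Abundant plasma proteins of the list rose by less. The orosomucoids Orm1 and Orm2 had log2 fold changes of 1.52 (SE 0.1801) and 1.60 (SE 0.1802), Hp, the haemoglobin scavenger haptoglobin, of 1.35 (SE 0.164), Lrg1 of 1.47 (SE 0.192) and Itih3 of 1.18 (SE 0.112), all called. Orm1, Orm2 and Orm3 are close paralogs and may share reads. The metalloreductase Steap4 reached 2.01 (SE 0.292) and Lbp, which carries bacterial lipopolysaccharide, 1.08 (SE 0.181). Fibrinogen chains Fgb and Fgg, at 0.53 and 0.51, complement C3, at 0.37, and haemopexin (Hpx), at 0.57, had an adjusted p under 0.1 and stayed below the 2-fold minimum. Fgb was at 1.14, 0.98 and 1.02 in YF, OF and VOF and at 0.095, −0.08 and −0.03 in YM, OM and VOM. Its effect in females minus that in males was 1.05 (SE 0.250, adjusted p = 0.00224, edgeR), and sex and mix cannot be told apart in it. The 1 member that fell was Hamp2, described with the lowered genes.

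**Figure D1:**
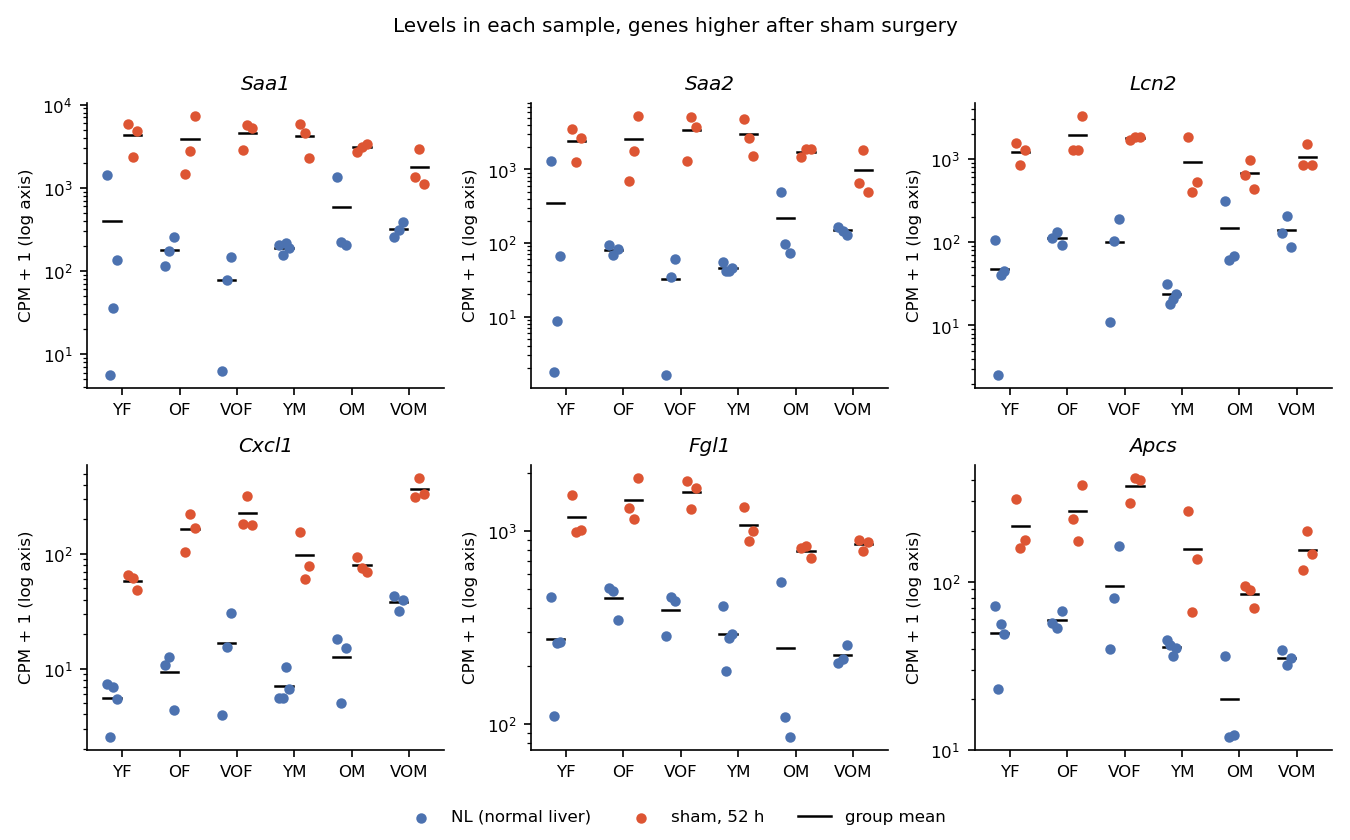
Levels of genes that were higher after sham surgery in each library, as CPM plus 1 on a log axis, by sex and age group, with NL and sham side by side and a bar at each group mean. Lcn2 and Fgl1 show no NL library as high as the lowest sham library, whereas the YF and OM NL libraries with the highest Saa1 reach into the sham range.

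Cytokine signalling genes rose in smaller number, 6 of 23 measured, with a median log2 fold change of 0.47, 21 of 23 above 0 and none called lower. Cxcl1, a chemokine that attracts neutrophils, was at 1.52, 7.88 and 42.2 CPM (lowest, median and highest) in NL and at 48.0, 128 and 459 in sham. No NL library reached the sham range, and the log2 fold change was 3.67 (SE 0.204, adjusted p = 7.52e-16), from 2.80 in OM to 4.24 in OF. Socs3, the feedback inhibitor of interleukin-6 signalling, was at 0.588, 3.08 and 34.5 CPM in NL and 0, 22.2 and 71.0 in sham, with a log2 fold change of 1.94 (SE 0.298, adjusted p = 7.37e-06). In VOM it did not differ in that direction: NL libraries had 28.8, 28.3 and 34.5 CPM and sham libraries 37.0, 31.1 and 23.2. Cish, another inhibitor of the same family, rose by 1.37 (SE 0.316, adjusted p = 0.00145) over the 6 groups but was at −0.41 in VOM. Nfkbiz rose by 1.14 (SE 0.152), Icam1 by 1.08 (SE 0.122) and the oncostatin M receptor Osmr by 1.76 (SE 0.328) at a mean of 2.46 CPM. Stat3 had a log2 fold change of 0.85 (SE 0.122, adjusted p = 2.50e-06), below the 2-fold minimum. Among receptors and adaptors upstream, the interleukin-1 receptor Il1r1 rose from a median of 5.17 CPM in NL to 13.2 in sham, and Tifa, an adaptor in NF-kB signalling, from 12.5 to 40.6, with log2 fold changes of 1.32 (SE 0.1797) and 1.91 (SE 0.173).

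Several of the genes called in each group belong to none of these lists. Isyna1 makes inositol phosphate from glucose 6-phosphate. It was at 0.760, 11.9 and 44.0 CPM (lowest, median and highest) in NL and at 24.999, 86.0 and 331 in sham, with a log2 fold change of 3.05 (SE 0.246, adjusted p = 1.14e-11) that ran from 1.46 in OM to 3.94 in VOF. Gas6, the ligand of the receptor kinases Tyro3, Axl and Mertk, was at 1.35, 6.68 and 24.5 CPM in NL and 10.2, 39.3 and 83.5 in sham (log2 fold change 2.31, SE 0.176, adjusted p = 5.14e-12). Atp11a, a phospholipid flippase, rose from a median of 11.7 to 83.0 CPM (2.16, SE 0.168). The transporter genes Slc37a1 and Slc3a1 rose by 2.62 (SE 0.248) and 1.73 (SE 0.157), from medians of 1.35 and 23.6 CPM to 9.37 and 80.1. Within each of the 6 groups, the arms of Isyna1, Gas6 and Atp11a did not overlap, although the ranges over all groups did.

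Of 25 heat shock proteins and chaperones, 9 were called upward, none downward and 16 in neither direction, with a median log2 fold change of 0.64 and 22 above 0. Hspa1b, an inducible Hsp70, was at 1.18, 9.34 and 86.5 CPM in NL and at 9.39, 58.4 and 179 in sham, a log2 fold change of 1.81 (SE 0.263, adjusted p = 2.99e-06). Its near-identical copy Hspa1a, with the same 30-base window before its start (chr17:34972242-34972271), rose by 1.33 (SE 0.511) at 5.005 CPM, and the split of reads between them is uncertain. The small heat shock protein gene Hspb1 rose by 1.56 (SE 0.203, adjusted p = 4.50e-07), and Hsp90aa1, the inducible cytosolic Hsp90, by 1.27 (SE 0.153, adjusted p = 9.77e-08). Hsp90aa1 did not rise in OM, where NL libraries had 381, 235 and 632 CPM and sham libraries 374, 346 and 327. In the other 5 groups NL stood at 40.4–197 CPM and sham at 142–416, with no overlap within a group. Of the proteins of the endoplasmic reticulum, Sdf2l1 rose by 1.51 (SE 0.229), Hyou1 by 1.09 (SE 0.192) and Pdia4 by 1.09 (SE 0.214), and the transcription factor Xbp1 by 1.05 (SE 0.121). Sdf2l1 was at −0.10 in OM. The list median was 0.09 in OM and 0.45–1.04 in the other groups. The integrated stress response, by contrast, had 1 of 14 genes called upward (Ddit3) and 1 downward (Trib3).

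Of 25 metal-binding and oxidative stress genes, 2 were called upward and 3 downward, against 2.58% and 1.91% of all genes tested. The metallothionein Mt2 was at 10.9, 98.4 and 519 CPM in NL and 100, 656 and 1392 in sham, a log2 fold change of 2.51 (SE 0.280, adjusted p = 2.13e-08), and Mt1 rose by 1.31 (SE 0.195, adjusted p = 4.12e-06). Both are also targets of the glucocorticoid receptor, and of that list 4 of 17 genes rose (Zbtb16, Mt1, Mt2 and Lcn2), with a median of −0.03. The glutathione S-transferase genes Gsta2, Gstm2 and Gstm1 fell. Gsta2 went from 7.86, 34.1 and 56.2 CPM in NL to 1.22, 7.18 and 39.6 in sham (log2 fold change −1.73, SE 0.221, adjusted p = 3.33e-07) and Gstm2 from a median of 401 to 179 CPM (−1.03, SE 0.148).

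**Figure D2:**
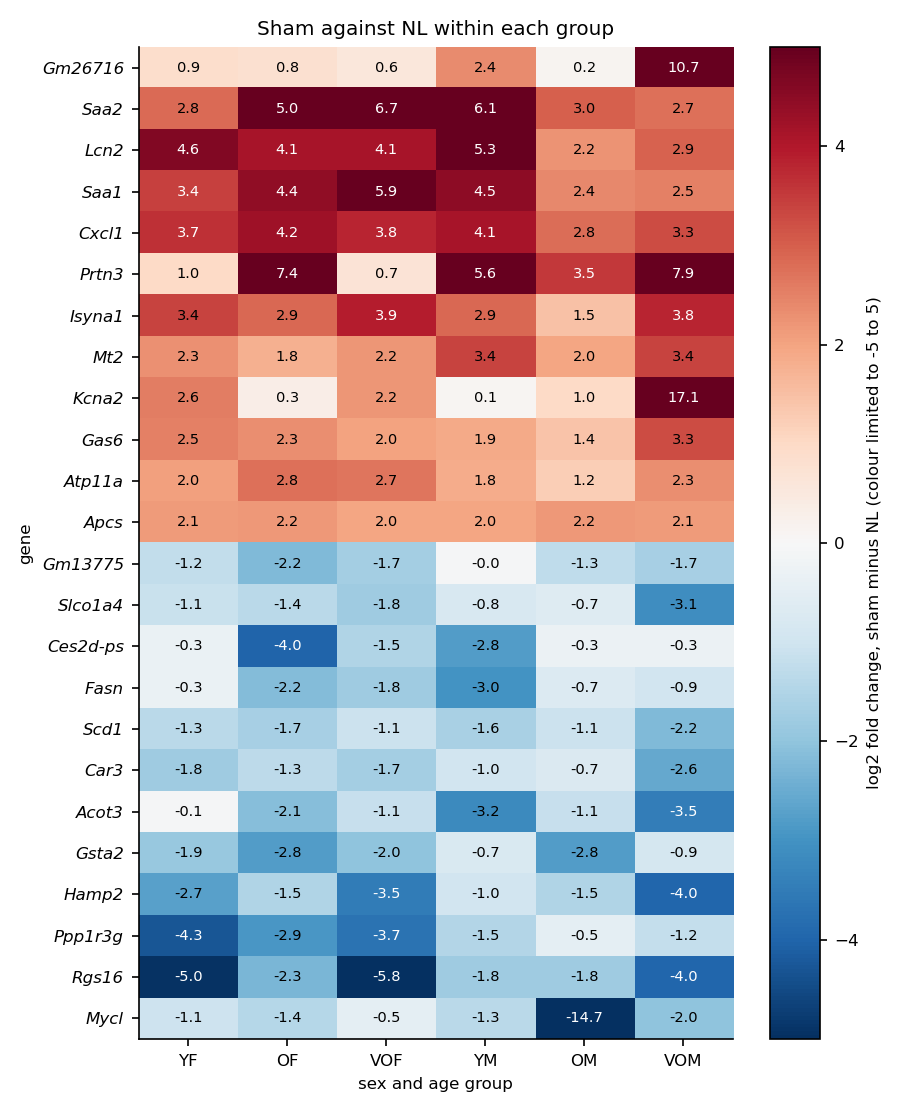
Log2 fold change of sham against NL in each of the 6 sex and age groups (columns) for the 12 largest rises and 12 largest falls with 1 sign in all groups (rows), with the value printed in each cell and the colour limited to the range from −5 to 5. Apcs is nearly even across the columns, from 1.97 to 2.18, whereas Prtn3 is at 0.70 in VOF and 7.90 in VOM, and Gm26716, Kcna2 and Mycl each owe their place to 1 group.

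Fatty acid synthesis was the list with the most genes lowered, 6 of 18, with none raised, a median log2 fold change of −0.52 and 16 of 18 below 0. Scd1, the desaturase that makes oleate, lies on chromosome 19 (44394455–44407879). In NL it stood at 2856, 4309, 2836 and 3268 CPM in YF, 1417, 2377 and 2224 in OF and 1367, 995 and 1266 in VOF, and in males at 2050, 4105, 3555 and 3014 (YM), 2462, 3958 and 3338 (OM) and 2923, 5122 and 3980 (VOM). After sham surgery it stood at 1397, 1153 and 1402 CPM in YF, 504, 885 and 497 in OF and 572, 554 and 590 in VOF, and in males at 1134, 864 and 1111 (YM), 1135, 1729 and 1755 (OM) and 1619, 486 and 529 (VOM). Every sham library was below every NL library of its group, while NL in VOF was as low as sham in YF. The log2 fold change was −1.49 (SE 0.152, adjusted p = 2.77e-09), from −1.08 in VOF and OM to −2.19 in VOM.

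Acly and Fasn, which act before Scd1 in the pathway, fell as well. Acly, which supplies cytosolic acetyl-CoA, was at 226, 326 and 625 CPM in NL and 88.1, 166 and 236 in sham (log2 fold change −1.08, SE 0.116, adjusted p = 8.18e-09), with no overlap within any group. Fasn, fatty acid synthase, went from 66.4, 215 and 791 CPM to 50.2, 90.4 and 187 (−1.45, SE 0.240, adjusted p = 2.35e-05), and its group values ran from −0.35 in YF to −2.97 in YM. Thrsp, a regulator of lipogenesis, had a larger log2 fold change of −1.87 (SE 0.320, adjusted p = 4.01e-05), and was at 0.10 in YF and between −0.75 and −3.30 in the other groups. Gpam, at 3.68 CPM, and Pklr, the liver pyruvate kinase gene, fell by 1.19 and 1.04 on the log2 scale. The regulators Srebf1 and Mlxipl had log2 fold changes of 0.05 and 0.13 and were not called. Genes of cholesterol synthesis were not called in either direction over the 6 groups (edgeR, 0 of 25, median −0.47; 18 at an unadjusted p under 0.05, 17 of them lower, and 0 called by DESeq2), with 17 lower in OF, 11 lower in YM and 2 higher in OM. Over all genes the shares called in the same group and direction were 7.07% in OF, 6.05% in YM and 2.44% in OM.

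Further lowered genes include Hamp2 and genes that act on glycogen, signalling and drug transport. Hamp2, a paralog of hepcidin, was at 87.4, 537 and 7200 CPM in NL and at 14.2, 147 and 706 in sham. The levels differed between groups by more than between arms, with NL at 2719–5886 CPM in YF and 87.4–124 in OM, but the arms did not overlap within any group (log2 fold change −2.30, SE 0.263, adjusted p = 3.45e-08). Hamp itself, the hepcidin gene that interleukin-6 is known to induce, was at 550, 2076 and 4103 CPM in NL and 1028, 2556 and 5310 in sham and was not called (0.32, SE 0.181, adjusted p = 0.203). Rgs16, a regulator of G protein signalling, went from 0, 17.8 and 152 CPM to 0, 2.41 and 10.1 (−3.50, SE 0.443, adjusted p = 2.64e-07). Ppp1r3g, a glycogen-targeting phosphatase subunit, went from 0.897, 22.2 and 122 CPM to 0.546, 4.00 and 12.5 (−2.52, SE 0.362, adjusted p = 2.54e-06). Car3, a carbonic anhydrase, went from a median of 1862 CPM to 609 (−1.50, SE 0.194), and Slco1a4, an uptake transporter for organic anions, from 204 to 66.4 (−1.41, SE 0.200). Acot3, Acot1, Acot2, Ehhadh and Angptl4 were the 5 of 36 genes of fatty acid oxidation and PPAR alpha targets that fell, with none raised and a list median of −0.28. Ces2d-ps and Gm13775, a pseudogene and a gene of unnamed function, fell by 1.45 and 1.30 on the log2 scale.

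**Figure D3:**
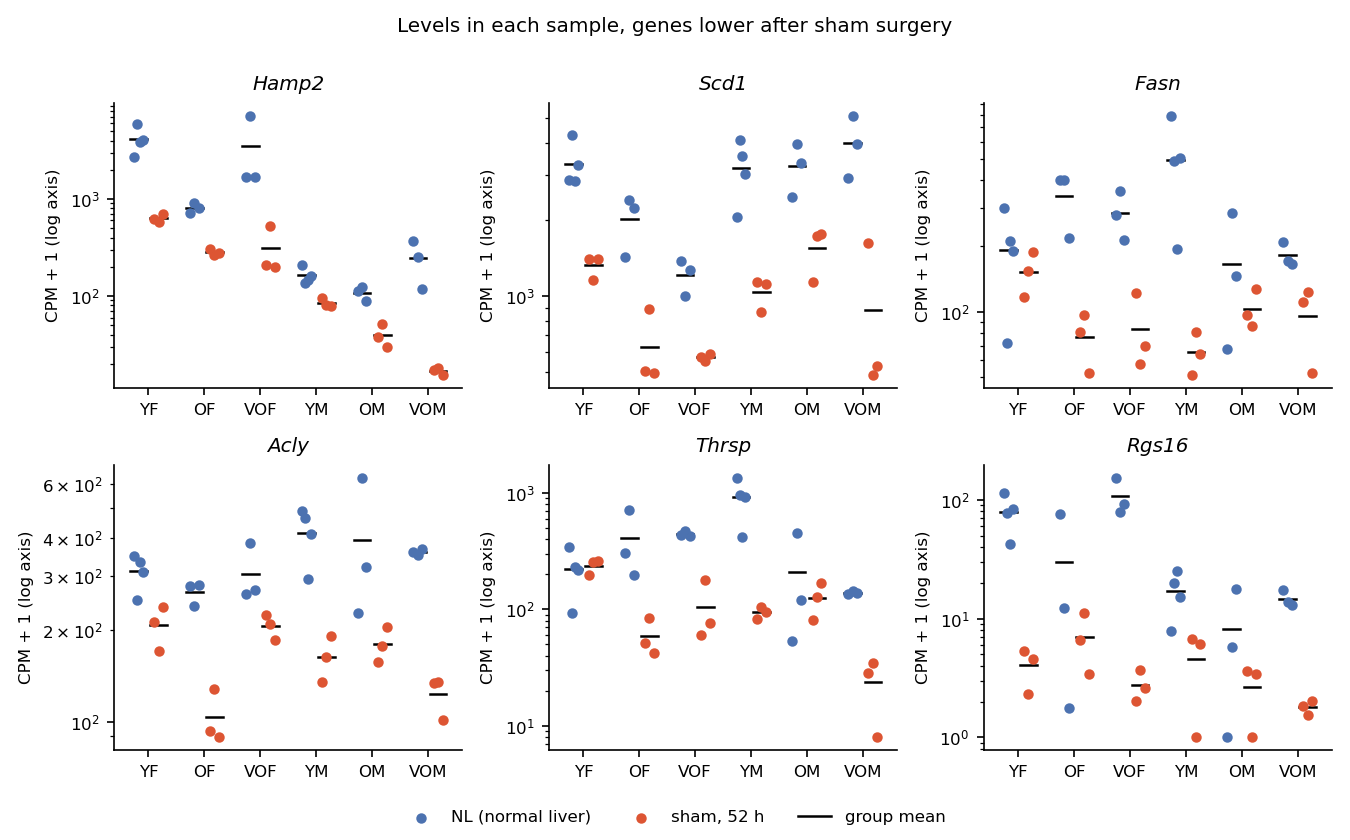
Levels of genes that were lower after sham surgery in each library, as CPM plus 1 on a log axis, by sex and age group, with NL and sham side by side and a bar at each group mean. For Scd1 and Hamp2 every sham library lies below every NL library of its group, although the groups differ in level.

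The other lists had few genes called. Over all genes tested 2.58% were higher and 1.91% lower, so 1 gene called says little about its list. The clock list had 1 of 20 genes upward (Nfil3, log2 fold change 1.67, SE 0.224) and 2 downward (Bhlhe41, −1.53, and Cry2, −1.26), with a median of −0.36. Of these 20 genes 9 were lower in OF, 7 in YM and 7 in VOM, where 7.07%, 6.05% and 9.37% of all genes were lower. The list median was 0.39 in YF, and the time of day of the NL livers was not given. Of immediate early genes 2 of 22 rose (Egr2 and Ier5), with Fos at 0.37 and Jun at 0.26 and neither called. Negative acute phase and other plasma proteins had 1 of 22 called, Apoa4, which rose by 1.34 (SE 0.197, adjusted p = 3.73e-06) but was at −0.01 in OM. Alb was at −0.37 (SE 0.128, adjusted p = 0.0310), under the 2-fold minimum. Bile acid synthesis and transport had 1 of 19 lowered, Cyp8b1, the sterol 12-alpha-hydroxylase gene (−1.21, SE 0.291, adjusted p = 0.00213). No gene was called among 37 genes of cytochrome P450 drug metabolism (median −0.05), 25 of the urea cycle and amino acid breakdown (−0.21), 29 of the interferon response and antigen presentation (0.06), 35 ribosomal protein genes (−0.11) or 37 of oxidative phosphorylation (−0.25, all 37 below 0) with edgeR. At an unadjusted p under 0.05 these lists had 12, 13, 11, 11 and 26 genes, and DESeq2 called 1 gene of them, in the interferon list. Within VOM, 12 of the 25 urea cycle and amino acid genes were lower and 1 higher, where 9.37% of all genes were lower. Of the 37 drug metabolism genes, 11 were higher and 4 lower in VOM, where 20.1% of all genes were called in either direction. The age contrast described below called 9 of those 37, against 7.25% of all genes. In the list for gluconeogenesis and glycogen 1 of 22 fell, Ppp1r3g, with a median of −0.43. Among cell cycle genes 4 of 25 rose (Ccna2, Mki67, Aurkb and Ccnb2), each at a mean of at most 5 CPM, with a median of 0.63 and 21 above 0. Their median ran from −0.55 in YM, with 2 genes lower, to 1.24 in YF, with 5 higher. In VOM 11 of them were higher, where 20.1% of all genes were called in either direction. Among 17 DNA damage genes 1 rose (Phlda3), and among 26 sex-biased hepatocyte genes 2 fell.

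Markers of other cell types were at these levels beside the results. None of the 16 macrophage markers was called over the 6 groups (edgeR, median −0.02, 3 at an unadjusted p under 0.05 and 0 called by DESeq2), and their sum was 269–2230 CPM in NL and 429–978 in sham. Within groups, 8 of the 16 were lower in VOF and 7 in VOM, where 11% and 9.37% of all genes were lower. The age contrast described below called 11 of the 16, against 7.25% of all genes. None of 16 endothelial markers (median 0.05), 5 cholangiocyte markers or 3 lymphocyte markers was called by edgeR, with 4, 0 and 1 at an unadjusted p under 0.05, and DESeq2 called 1 lymphocyte marker lower. One of 15 stellate and fibroblast markers (Col1a1) was higher and 1 of 6 red cell markers (Hbb-bt) was lower. None of the 11 neutrophil markers listed was among the genes tested. Prtn3, a protease of neutrophil granules, was higher in sham in 6 of 6 groups (log2 fold change 3.20, SE 0.545, adjusted p = 3.72e-05), by 3.52 to 7.90 in OF, YM, OM and VOM and by 1.01 and 0.70 in YF and VOF, where NL libraries held 0.551–32.7 and 7.65–92.9 CPM. The part of other cells in these results was not tested, and fewer cells of a type cannot be told apart from less RNA per cell.

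Some named genes owed their value to 1 library or group. Gm26716 had the largest log2 fold change (6.60, SE 2.01, adjusted p = 0.0145), with 12576 CPM in VOM sham replicate 2 and at most 3.66 CPM in each of the other libraries, and without that library its value was 0.19. Kcna2 (2.42, SE 1.03, adjusted p = 0.0818) stood at 134247, 141807 and 117510 CPM in VOM sham and at most 4.86 elsewhere, and was among the genes above the UMI limit. Mycl (−3.51, SE 1.26, adjusted p = 0.0372) had 22149 and 30488 CPM in 2 OM NL libraries and 0 in the third.

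Called within a single group, by the same rule, were 1366 genes in YF (12.4%), 1659 in OF (15%), 2246 in VOF (20.3%), 1820 in YM (16.5%), 647 in OM (5.86%) and 2222 in VOM (20.1%). Without the libraries numbered 4 the counts were 1023 in YF and 1731 in YM. The 130 genes that were higher with 1 sign in all groups had a median log2 fold change of 1.58 in YF, 1.40 in OF, 1.53 in VOF, 1.27 in YM, 0.92 in OM and 1.59 in VOM. In OM 30 of the 130 passed the test, against 82 to 100 in the other 5 groups. The 67 lowered genes had medians from −0.76 in OM to −1.47 in VOM. OM NL was 1 of the groups in which genes above the UMI limit held a large share of the counts, and the part of this in the lower count was not tested.

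The sham effect was then compared between sexes and ages. The effect in females minus that in males was called for 1280 genes in either direction (11.6%), and the effect in very old minus that in young mice for 801 (7.25%). Without the NL libraries numbered 4 these counts were 1183 and 657. Among the 197 genes called with 1 sign in all groups, 28 (14.2%) were called for sex and 18 (9.14%) for age, and none of the 15 genes called in each group was called for either. The 15 were chosen in the same model for passing in every group, which favours an even effect, so that choice partly fixes this result. Of the 130 raised genes 18 rose more in females and 4 less, and of the 67 lowered genes 4 fell more in females and 2 less. Socs3, whose sign was not the same in all groups, had a mean log2 effect of 3.03 in females and 1.34 in males (difference 1.68, SE 0.477, adjusted p = 0.00915), and Hspa1b of 2.37 and 1.36 (1.01, SE 0.436, adjusted p = 0.0843). Ppp1r3g fell more in females, at −3.63 against −1.04 (difference −2.59, SE 0.695, adjusted p = 0.00619), whereas Cyp8b1 was at −0.40 in females and −2.17 in males (1.77, SE 0.388, adjusted p = 0.00109). Hamp had a mean of 0.75 in females and −0.23 in males (0.98, SE 0.240, adjusted p = 0.00303). The male groups differed in sign, with 0.95 in YM, −0.78 in OM and −0.85 in VOM. Its effect in very old minus that in young mice was also called (−1.10, SE 0.290, adjusted p = 0.0145, edgeR). By age, Hamp2 fell more in very old mice, at −3.73 against −1.83 in young mice (−1.90, SE 0.398, adjusted p = 0.00232), and Slco1a4 likewise, at −2.44 against −0.96 (−1.48, SE 0.368, adjusted p = 0.00964). Because each group's arms lay in different mixes, sex, age and mix cannot be told apart in these contrasts.

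The mix was examined through the few mixes that hold both arms across groups. A fit with the mix as a term, over 52 libraries that include replicates marked X in the titles, called 57 genes higher (0.516%) and 33 lower (0.299%). Of the 130 raised genes 126 were above 0 in it and 26 were called, and of the 67 lowered genes 67 were below 0 and 6 were called, with a median SE of 0.541 against 0.218 without the mix. Over all genes 45.8% were above 0. These libraries include the 38 on which the 197 genes were chosen, so the direction of the 197 in this fit is not independent of that choice. Lcn2 was at 4.30 (SE 0.983, adjusted p = 0.0407), Cxcl1 at 3.27 (SE 0.497, adjusted p = 0.000497) and Fgl1 at 1.73 (SE 0.438, adjusted p = 0.0592), while Scd1, at −1.19 (SE 0.344, adjusted p = 0.118), and Mt2, at 2.24 (SE 0.811, adjusted p = 0.246), were not called.

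This fit depended on the NL libraries numbered 4, of which only YF NL replicate 4 shared a mix with sham libraries. In mix 18 it was the only NL library, beside 2 YM sham libraries. YM NL replicate 4 stood alone in mix 26, so the mix term took up its level. Without both libraries the fit called 3 genes higher and 23 lower, 1 of these genes among the 197. Then 93 of the 130 were above 0 and 54 of the 67 below 0, with a median SE of 1.21, and 46.8% of all genes were above 0. Of the 33 acute phase genes 24 were above 0 (median 0.45), none called, and the heat shock list had a median of −0.28. The fatty acid synthesis list had a median of −0.48.

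**Figure D4:**
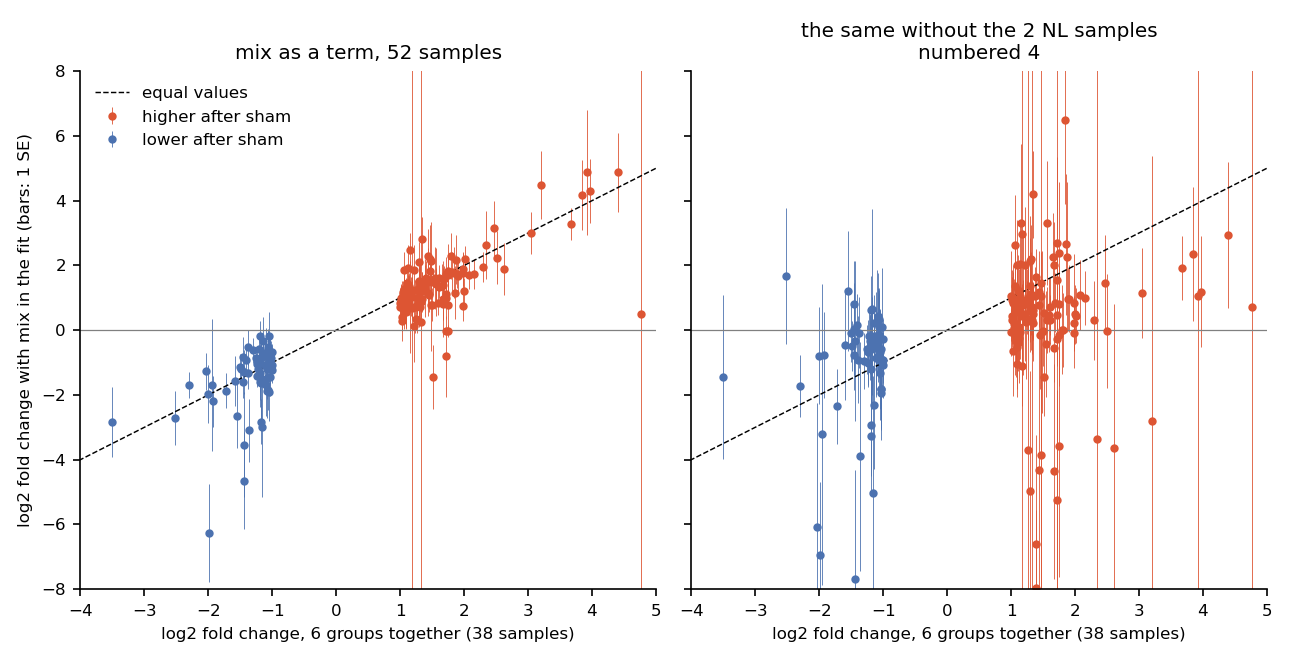
Log2 fold change of sham against NL over the 6 groups together (horizontal axis) against the value with the mix as a term (vertical axis), with and without the NL libraries numbered 4, for 194 of the 197 genes called with 1 sign in all groups (Gm26716, Kcna2 and Mycl left out), with bars of 1 SE that are cut at the edge of the axes. The points with all libraries follow the diagonal, and those without the libraries numbered 4 scatter on both sides of 0 with longer bars.

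Differences inside a mix, on the log2(CPM + 4) scale and with no test, were available in 3 mixes, each across groups of different sex or age. In mix 10, with 1 YF sham and 2 NL libraries (OF and YM), all marked X, 111 of the 130 were above NL and 53 of the 67 below. In mix 18, with 2 YM sham libraries and YF NL replicate 4, the numbers were 119 and 61, and in mix 23, with 1 OM sham and 1 VOM NL library marked X, 110 and 57. Over all genes 46.8–47.8% were above NL and 51.4–51.9% below in these mixes. The NL library of mix 18 lay close to the mean of YF NL replicates 1–3, which are of mix 2. In all 3 mixes 87 of the 130 were above NL, against 10.8% of all genes, and 42 of the 67 below, against 13.3%. The 130 and 67 were chosen on the 38 libraries, which hold all 3 libraries of mix 18 and the sham library of mix 23, so the choice itself fixes part of these counts. Mix 10 alone holds none of the 38, but whether its libraries marked X come from other mice is not known. Lcn2 differed by 3.97, 4.16 and 1.56 in mixes 10, 18 and 23, Saa1 by 3.68, 5.22 and 3.38, and Scd1 by −0.65, −1.72 and −0.88, while Hamp2 was at 1.05, −5.49 and −2.81.

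The 14 libraries marked X (4 sham and 10 NL) were left out of the comparison over the 38 libraries, and nothing in the sources used here says whether they come from other mice. The sham libraries were of YF, OF and OM and the NL libraries of OF, YM and VOM. Their ranges thus mix the operation with sex and age. Lcn2 was at 430–1505 CPM in the 4 sham libraries and 19.2–305 in the 10 NL libraries, Saa1 at 2107–6654 and 84.4–381, Fgl1 at 799–1773 and 192–528, and Fasn at 97.2–158 and 171–853, without overlap. Isyna1, Gas6, Apcs, Serpina3n, Saa2 and Saa4 were apart in the same way. Cxcl1, Mt2, Atp11a, Hspa1b, Hamp2, Rgs16 and Scd1 overlapped, Scd1 with 754–1956 CPM in sham and 1802–4885 in NL. In OF, the group with both arms among them, the 1 sham library was above all 4 NL libraries for 86 of the 130 raised genes (66.2%, against 25.5% of all genes) and below them for 46 of the 67 lowered genes (68.7%, against 32.4%). The chi-square for each degree of freedom was 3.57, 3.43 and 4.99 between OF NL 1X, 2X and 3X (mix 1) and their unmarked namesakes. It was 2.42 between OF sham 2X and sham replicate 2. Against unmarked replicates of other numbers these libraries gave 3.44 to 9.88. OF NL 1X of mix 10 gave 6.47 against its unmarked namesake, and 9.37 and 10.3 against OF NL replicates 2 and 3. The unmarked replicates were used to choose the 130 and 67, so these OF counts may not be independent of that choice.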

How the data were processed

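CEL-seq2 libraries of isolated hepatocytes were sequenced by the authors, demultiplexed with bcl2fastq 2.20 and counted by UMI with the celseq2 pipeline on mouse Ensembl annotation (the labels name GRCh38, although all 11049 gene identifiers are of mouse). The deposited values are expected counts: the authors corrected UMI counts for collisions, excluded 9 genes, removed low genes and applied ComBat-Seq, whose batch variable is not given in the sources used here. They were rounded here. The members and the 31 gene lists were chosen with earlier results of these data known. Replicates marked X were left out where 3 others remained. The 11046 genes that reached 0.5 CPM in 1 library or more were tested with edgeR 4.0.16 (quasi-likelihood F test, TMM, R 4.3.3), with sex and age group as a block. A 12-group model gave the effects within groups and the sex and age contrasts. Calls needed a Benjamini-Hochberg adjusted p under 0.1 and a 2-fold change. SE is the absolute log2 fold change divided by the square root of F. Tests were checked on simulated data. Tables and figures used Python 3.11.15, NumPy 2.4.6, pandas 2.3.3, SciPy 1.17.1 and matplotlib 3.10.9. The named genes were the 12 largest changes in each direction with 1 sign in all groups and a mean of at least 20 CPM, and up to 4 called genes of each list (up to 2 more where best known). Other genes were named from the lists and counts after their values were seen. Alternatives were DESeq2 1.42.0, other scalings, filters and thresholds, left-out libraries or groups, a replicate block and the mix as a term. The fits without the libraries numbered 4 were added after the data were seen. Total counts per library limit precision for low genes, and errors reflect the spread between samples.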

Additional observations from a re-analysis of the deposited data

Results flagged for a closer look

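Within groups of 4 libraries, 1 library lay far from the others for these named genes, which chance alone gives in about 1 in 20 groups. Saa1 stood at 1421 CPM in YF NL replicate 1 against 4.56–135 CPM in the other YF NL libraries, and Saa2 at 1306 CPM in the same library against 0.760–66.1. Sdf2l1 stood at 15.6 CPM in YF NL replicate 3 against 5.90–7.16. Acot1 stood at 84.1 CPM in YM NL replicate 3 against 77.9–78.5. Gm26716 was at 0.347 CPM in YM NL replicate 2 and 0 in the other YM NL libraries. Each of these groups holds a library numbered 4, which lies close to the mean of the others.

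The sham effect differed between sexes for 6 named genes, as log2 effect in females minus that in males (edgeR, adjusted over all genes). The difference was −4.36 for Kcna2 (SE 0.917, adjusted p = 0.000696), 5.03 for Mycl (SE 1.76, adjusted p = 0.0328) and −2.59 for Ppp1r3g (SE 0.695, adjusted p = 0.00619). It was 1.48 for Acot3 (SE 0.625, adjusted p = 0.0793), 1.01 for Hspa1b (SE 0.436, adjusted p = 0.0843) and 1.77 for Cyp8b1 (SE 0.388, adjusted p = 0.00109). Kcna2 was high in the VOM sham libraries alone, and Mycl in 2 OM NL libraries alone.

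As log2 effect in very old minus that in young mice, the difference was 8.34 for Kcna2 (SE 1.42, adjusted p = 0.000251), −1.90 for Hamp2 (SE 0.398, adjusted p = 0.00232) and −1.48 for Slco1a4 (SE 0.368, adjusted p = 0.00964). For Gm13775 it was −1.05 (SE 0.332, adjusted p = 0.0398) and for Acot1 1.799 (SE 0.622, adjusted p = 0.0619).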

How the results depend on the processing

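Over the 6 groups together, 285 genes were higher and 211 lower, against 269 and 213 with DESeq2, 286 and 211 with its size factors, 279 and 219 without the genes above the UMI limit, 242 and 201 with a minimum of 10 counts in 3 libraries, and 316 and 237 with the libraries marked X. Leaving out 1 library at a time gave 269–319 and 198–244, 126–145 and 58–74 with 1 sign in all groups, and 5–17 and 0–2 in each group. It gave 1203–1302 for sex and 687–822 for age. With the mix as a term the counts were 57 and 33, and 3 and 23 without the NL libraries numbered 4; fewer libraries then joined the arms within a mix. Values on the other side of 0 in that last fit were Prtn3 −2.81, Mt2 −0.022, Ppp1r3g 1.66, Ces2d-ps 0.030, Slco1a4 0.17, Apoa4 −0.90, Nfil3 −0.55, Sdf2l1 −2.03, Hsp90aa1 −0.38 and Angptl4 0.43, all with an adjusted p of 1. At an adjusted p under 0.05 with no fold minimum, 1313 and 1414 genes were called, 455 and 435 with 1 sign in all groups, 3 lower in each group, 2863 for sex, and 2628, 3447, 3163 and 3726 within OF, VOF, YM and VOM. Leaving out a whole group gave 737 genes for sex without VOF and 2266 without OF, and for age 2389 without YF, 2195 without VOF and 1264 without VOM. Without OM, 214 and 105 genes had 1 sign and 36 were higher in each remaining group, and without YM 3 were lower in each. Groups left out reduce the number of conditions a gene has to meet; the cause of the changes for sex and age was not tested. Replicate numbers did not pair the samples (correlations of deviations from −0.063 to 0.170, 3 of 18 over 0.1, 9 best with their own number). The replicate block gave 251 and 152 genes, with 174 of the 197 still called. Over 53 settings other than the mix, the 39 named genes gave 2065 values, of which 39 (9 genes) were no longer called and 0 changed sign. The named genes were chosen as called on the same 38 libraries that most of these settings refit, so that choice largely fixes the signs.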

Other observations

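Levels of some of these genes are also known in other groups of the series, here with a scaling over more libraries and with no test. Lcn2 had a median of 88.7 CPM in NL (n = 20), 1432 at 52 h after sham surgery (n = 18), 438 at 4 days after sham surgery (n = 18) and 2942 at 52 h after partial hepatectomy (n = 18). Saa1 had medians of 227, 3493, 1322 and 5200 CPM in the same order. For Cxcl1 the medians were 9.03, 145, 127 and 158 CPM, and for Isyna1 13.5, 99.4, 37.2 and 225. Scd1 had medians of 3299, 1137, 1927 and 420 CPM and Hamp2 of 623, 167, 304 and 38.01. For all of these genes the median at 4 days after sham surgery lay between those of NL and of sham at 52 h. Some other named genes differed. In NL, sham at 52 h and sham at 4 days, Ppp1r3g had medians of 25.7, 4.56 and 3.19 CPM and Cish of 10.6, 37.5 and 48.9.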
